A study of Mus musculus with 9 samples.

Results

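Suv39h1, Tet1 and Tet2 were followed in mouse embryonic stem cells (ESCs) through the RNA of the transposable element copies that lie inside these genes. The members were all copies of the table lying wholly inside the mm10 intervals chrX:8061000-8075000 (Suv39h1), chr10:62804000-62888000 (Tet1) and chr3:133463000-133545000 (Tet2), and their counts were summed per gene. The rule found 267 of the 623916 copies, with 19 in Suv39h1, 153 in Tet1 and 95 in Tet2. It uses positions only and no measured value. The intervals span 180000 bp, of which 26.4% is sequence of these copies. All 3 genes are read from the minus strand.

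The study asked how ESCs with short telomeres differ from wild-type (WT) ESCs, and RNA was taken from cells of strain C57BL/6 after feeder cells had been removed. The labels give no passage number. The 9 libraries were 3 of WT ESCs, 3 of G1 Terc-/- ESCs and 3 of G4 Terc-/- ESCs. Terc is the RNA component from which telomerase copies telomeric repeats. Its loss is shared by the G1 and G4 lines, which differ in generation. G1 Terc-/- ESCs came from blastocysts of heterozygous parents, and G4 Terc-/- ESCs from blastocysts of late-generation Terc-/- parents. Nothing in the labels says whether the 3 libraries of a group came from separate lines or cultures, so p-values measure the spread between these libraries, which may be technical. Terc held no copy, so the deletion could not be checked here.

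Suv39h1 is a histone methyltransferase that places the trimethyl mark on lysine 9 of histone H3 (H3K9me3), the mark of compact heterochromatin at pericentromeric repeats, telomeres and many silenced retrotransposons. Tet1 and Tet2 are dioxygenases that oxidise 5-methylcytosine, the first step of active DNA demethylation, and they are the TET enzymes known for high expression in ESCs, where DNA methylation is another means of silencing repeats. H3K9 methylation and DNA methylation are thus both means of silencing repeats, and neither mark was measured on the counted copies. A repeat copy in a last exon is part of the mature mRNA, while a copy in an intron is seen in RNA that still holds the intron or in a transcript started nearby.

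The sequence just upstream of each start site was taken from RefSeq (GRCm38.p6, minus strand, written 5′ to 3′), to show the CpG content of the starts that RefSeq gives. Whether the counted RNA began at them was not measured, and the Tet1 and Tet2 windows lie inside the longer spans annotated by GENCODE. Capitals mark CpG dinucleotides, the substrate of DNA methylation. The Suv39h1 sequence is chrX:8074761-8075010, the Tet2 sequence is chr3:133544391-133544640, and the Tet1 sequence, chr10:62887325-62887412, stops where an annotated first exon begins.
Suv39h1 promoter: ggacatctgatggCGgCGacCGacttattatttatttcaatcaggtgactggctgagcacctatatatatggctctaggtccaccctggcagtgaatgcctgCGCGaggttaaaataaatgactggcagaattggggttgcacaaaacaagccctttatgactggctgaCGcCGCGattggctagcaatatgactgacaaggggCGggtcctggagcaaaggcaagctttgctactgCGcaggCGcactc
Tet1 promoter: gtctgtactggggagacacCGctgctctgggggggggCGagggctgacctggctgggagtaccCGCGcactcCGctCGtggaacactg
Tet2 promoter: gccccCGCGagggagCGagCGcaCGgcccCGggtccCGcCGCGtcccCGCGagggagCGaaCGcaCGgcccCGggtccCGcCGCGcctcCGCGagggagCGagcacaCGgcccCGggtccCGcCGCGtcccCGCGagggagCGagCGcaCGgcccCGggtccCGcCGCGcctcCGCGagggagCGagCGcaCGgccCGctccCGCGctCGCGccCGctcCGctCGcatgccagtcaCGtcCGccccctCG
In the 250 bases upstream of the start, Tet2 held 51 CpGs, Tet1 15 and Suv39h1 11, against a median of 6 over 32851 promoters. Of these promoters, 99.9% held fewer CpGs than Tet2, 72.7% fewer than Tet1 and 64.4% fewer than Suv39h1. The motif GGGCGG (read on both strands, the letters of a GC box) occurred 1 time in the 250 bases of each gene and in 32.7% of all promoters. CCAAT (both strands) occurred 2 times in the 250 bases of Suv39h1 and in 33.8% of all promoters. The shorter Tet1 sequence printed above, of 88 bases, holds 6 CpGs and 0 GGGCGG motifs. These are descriptions of the letters, since no methylation or binding was measured.

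Library totals ran from 918879 to 1137257 counts, and the 3 genes together received 7410 counts over all libraries, namely 2841 in Suv39h1, 3630 in Tet1 and 939 in Tet2. The counts were concentrated in few copies. Each of the 267 copies had some count, but only 67 reached 10 counts over the 9 libraries, and 11 passed the filter for the copy-level test (5 in Suv39h1, 3 in Tet1 and 3 in Tet2). In Suv39h1 the 2 leading copies held 70.9% of the counts, and in Tet1 63.1%. In Tet2 they held 27.4%. Of the 267 copies, 212 were SINEs, 32 LINEs, 14 LTR elements and 9 DNA transposons, and 176 lay antisense to the gene.

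Marker genes of other cell states moved with the groups in all libraries. Markers of primitive endoderm, the extra-embryonic lineage that ESC cultures can contain, followed the groups. The summed level of the 10 of 11 listed markers that hold copies was 5318 to 5674 CPM (counts in proportion to the scaled library total) in WT, 2288 to 2398 in G1 and 131 to 162 in G4. All 9 tested markers were lower in G4 than in WT, among them Gata4 whose mean was 850 CPM for WT but 22.8 CPM for G4, and Gata6 with 60.1 and 0.332 CPM. Sox17 had 2 counts in all. The pluripotency markers moved the other way, from 6790 to 7411 CPM in WT to 10741 to 11920 in G1 and 21589 to 29260 in G4, and all 6 tested members rose in G4, led by Prdm14, Esrrb, Tdgf1 and Tfcp2l1. Pou5f1 and Klf4 had too few counts to be tested, and Sox2 holds no copy. The part of these shifts in the results on Suv39h1, Tet1 and Tet2 was not tested, and in bulk RNA fewer cells of a type and less RNA per cell cannot be told apart. Feeder fibroblast markers summed to 63.2 to 79.8 CPM in WT and 231 to 252 CPM in G4, carried by Fn1 and Col1a1, while Col1a2 had 1 count and Dcn 4 counts in all. Markers of the 2-cell state summed to 38.4 to 53.0 CPM in WT, 50.6 to 58.6 CPM in G1 and 122 to 133 CPM in G4. Both tested members were higher in G4, Eif1a with 45.3 and 95.9 CPM and Usp17lc with 0 counts in WT and a mean of 24.6 CPM in G4. In WT the whole sum came from Eif1a, which also gave most of it in G4. Zscan4c, Zscan4d, Zscan4f and Tcstv1 had 0 counts in WT and G1 and 3, 4, 5.5 and 3 counts in all. Tcstv3 and Zfp352 hold no copy.

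Suv39h1 RNA was lowest in G4 Terc-/- ESCs. The 19 copies (ENSMUSG00000039231.18, annotated at chrX:8061171-8074760) held 383, 447 and 524 counts in the WT libraries, 342, 393 and 326 in G1, and 123, 167 and 136 in G4. Scaled to library size, the mean was 459 CPM in WT (SD 60.1, n = 3), 353 CPM in G1 (SD 10.4, n = 3) and 137 CPM in G4 (SD 21.2, n = 3). The G4 libraries were below all others, and the WT and G1 libraries did not overlap either, though the lowest WT library at 390 CPM came close to the highest G1 library at 364 CPM. Against WT, Suv39h1 fell by 1.74 on the log2 scale in G4 (SE 0.131, adjusted p = 2.37e-14, edgeR quasi-likelihood test), where 39.8% of the 10497 genes tested were called in either direction and 19.6% were called lower. Against G1, it fell by 1.36 (SE 0.132, adjusted p = 5.83e-11, with 34.6% of genes called). The difference between G1 and WT was -0.38 (SE 0.121), which missed the threshold of 0.05 at an adjusted p of 0.0520 in a comparison that called 5.7% of genes. Several alternative settings called it, and copies outside exons alone gave the opposite sign.

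**Figure D1:**
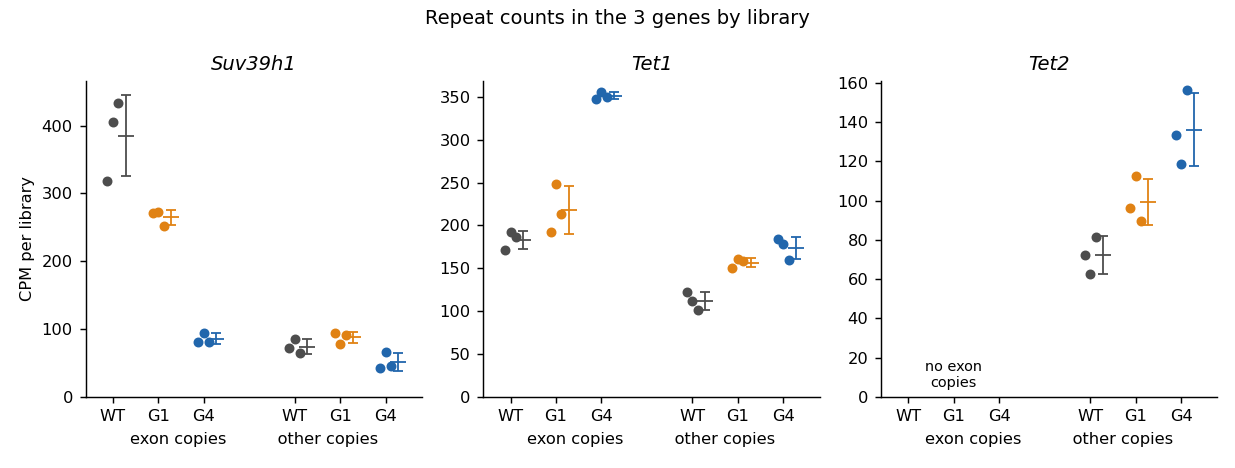
CPM of the summed copies in each library (points) with the group mean and SD (bars, n = 3), for copies in exons of protein-coding transcripts and for all other copies of Suv39h1, Tet1 and Tet2. The exon copies of Suv39h1 step down from 385 CPM in WT to 265 in G1 and 85.6 in G4, those of Tet1 go from 183 to 351 CPM, and Tet2 has other copies alone.

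Most of the counts that differed lay in the last exon. In the reference protein-coding transcript, which has 6 exons, 3 copies lie in the 3′ UTR, and 2 of these held nearly all of its counts. PB1D7, an old monomeric B1-like SINE of 108 bp, had 157, 198 and 236 counts in WT, 136, 162 and 127 in G1, and 33, 39 and 35 in G4. L2c, an ancient LINE fragment of 229 bp, had 140, 148 and 200 counts in WT, 99, 104 and 87 in G1, and 36, 42 and 34 in G4. For either copy the 3 groups did not overlap once scaled to library size. PB1D7 fell by 2.53 (SE 0.158, adjusted p = 1.19e-12) and L2c by 2.19 (SE 0.165, adjusted p = 5.03e-11) in G4 against WT, where edgeR called 42.5% of the 13278 copies tested. Both copies were also called in G1 against WT, where 6.77% of copies were called, with L2c at -0.76 (adjusted p = 9.80e-04) and PB1D7 at -0.49 (adjusted p = 0.0199). The call of PB1D7 was lost without a filter (adjusted p = 0.705) and without WT replicate 2 or 3 or any 1 of the G1 replicates (adjusted p from 0.0536 to 0.113), while that of L2c was kept under the alternatives run. The third 3′ UTR copy, MER113, had 3 counts in all.

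Copies of Suv39h1 outside protein-coding exons showed a smaller difference. These 14 copies held 71, 78 and 68 counts in WT, 88, 88 and 87 in G1, and 42, 69 and 49 in G4. At 74.2 ± 10.6, 88.0 ± 8.31 and 51.5 ± 13.3 CPM, the WT libraries overlapped with those of either other group, while every G4 library was below every G1 library. As a sum of their own they differed by -0.50 in G4 against WT, which was not called (SE 0.212, adjusted p = 0.0662, with 31.7% of 9238 genes called), by -0.71 in G4 against G1, which was called (adjusted p = 0.00821, with 26.5% of genes called), and by 0.21 in G1 against WT (adjusted p = 0.689, with 2.96% called). The 5 exon copies fell by 2.20 in G4 against WT (SE 0.119, adjusted p = 5.18e-23, with 54.5% of 3303 genes called), by 1.74 in G4 against G1 (adjusted p = 6.45e-18, with 47.7% called) and by 0.46 in G1 against WT (adjusted p = 9.12e-04, with 14.2% of genes called).

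The difference between the exon and the other copies was tested directly, with the parts of a gene set against each other in 1 edgeR model over 2229 genes that hold tested copies of both kinds. The exon copies of Suv39h1 changed by 1.65 log2 units more steeply than the other copies in G4 against WT (exon minus other, -1.65, adjusted p = 6.48e-07), in a test that called 11.7% of genes and 6.15% in this direction. In G4 against G1 the difference was -0.86 (adjusted p = 0.0179, with 9.87% called), a call lost without G1 replicate 2 (adjusted p = 0.116) or G4 replicate 2 (adjusted p = 0.150). In G1 against WT it was -0.79 and was not called (adjusted p = 0.162, where 2 genes or 0.0897% were called). Of all Suv39h1 counts, the 3′ UTR held 79.4% ± 3.31 in the WT libraries, 67.4% ± 1.69 in the G1 libraries and 52.2% ± 3.43 in the G4 libraries (SD, n = 3), and the lowest WT share, 77.4%, was above the highest G1 share, 69.0%, which was above the highest G4 share, 56.1%.

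Single copies of Suv39h1 outside its last exon were near the limit of the counts. Of the 16 copies with at least 10 counts, 11 lie in intron 3 of the reference transcript. B1_Mus1, a SINE of 141 bp in that intron that another protein-coding Suv39h1 transcript holds as exon, and so 1 of the 5 exon copies, had 9, 18 and 16 counts in WT, 14, 30 and 15 in G1, and 9, 8 and 12 in G4. The groups overlapped, and the difference between G4 and WT of -0.63 (SE 0.398) was not called (adjusted p = 0.208). Measured against the other copies of its gene, B1_Mus1 stood 1.45 log2 units higher in G4 against WT (edgeR, adjusted p = 0.0430, in a test that called 1.66% of 7125 copies), and it was the 1 member copy of 11 called in that test. PB1D10 and URR1B, described next, stood higher by 1.12 and 1.37 in the same test but were not called (adjusted p = 0.333 and 0.163). PB1D10, also in intron 3, had 11, 21 and 15 counts in WT and 10, 8 and 7 in G4, and its difference of -0.97 (SE 0.391) was called narrowly at an adjusted p of 0.0484, a call lost under both uses of DESeq2, library totals, no filter and the replicate block, and without WT replicate 2 or 3 or G4 replicate 2 or 3. URR1B, a DNA transposon copy with 16, 10 and 10 counts in WT and 4, 13 and 6 in G4, was not called (-0.72, SE 0.458, adjusted p = 0.213).

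**Figure D2:**
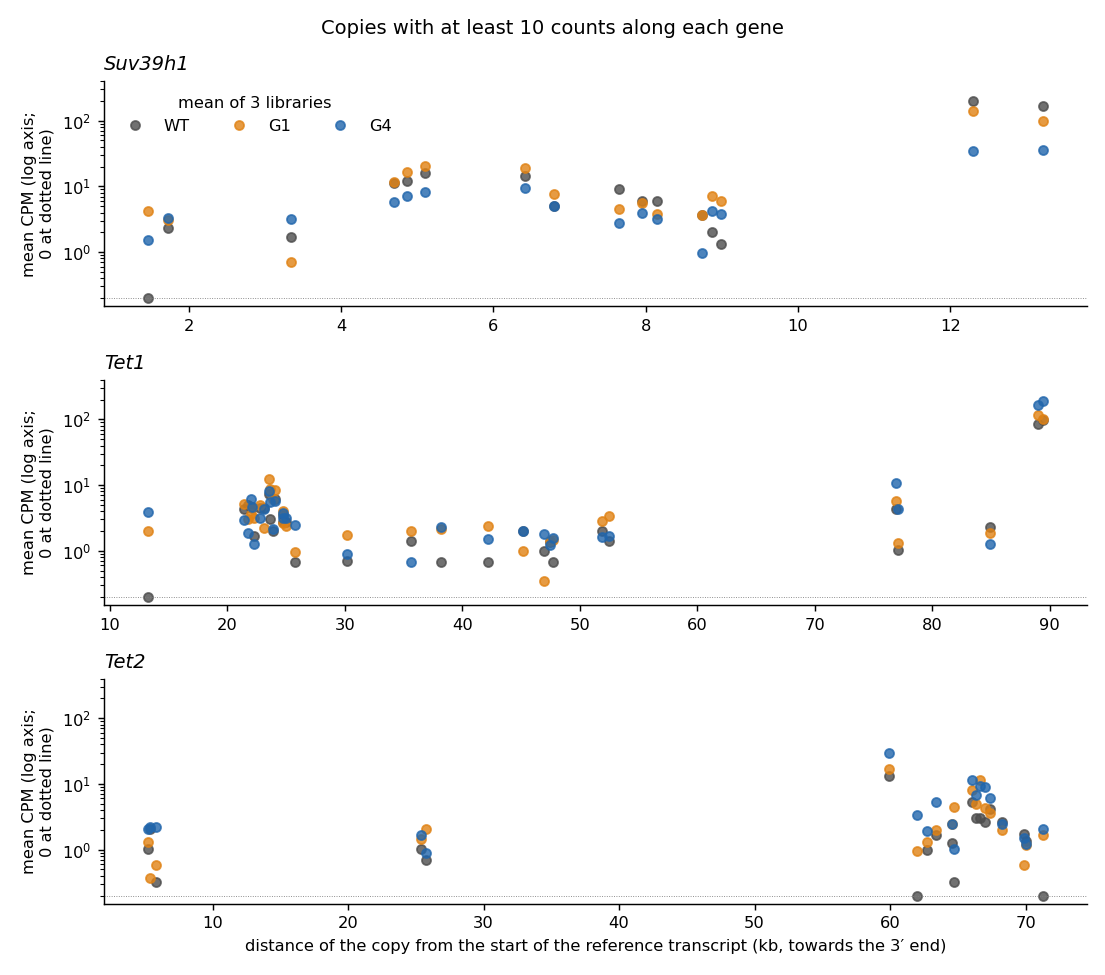
Mean CPM of 3 libraries per group (log axis) for the 67 copies with at least 10 counts, placed by their distance in kb from the start of the gene's reference transcript, which for Tet1 lies upstream of the interval; a mean of 0 is drawn on the dotted line. Suv39h1 and Tet1 end in 2 copies above 100 CPM, in WT for Suv39h1 and in G1 and G4 for Tet1, and Tet2 has no such pair.

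The Suv39h1 copies also lie inside the span of Gm14820, an antisense RNA gene on the plus strand (chrX:8042943-8074619). Whether reads were counted by strand is not given in the sources used here, so the strand that gave the counts is not known. Tet1 likewise contains Gm48353, a short gene model on its own strand (chr10:62858124-62859994). The 26 copies in the 20 kb downstream of the Suv39h1 interval had 3, 5 and 5 counts in WT, 12, 4 and 4 in G1, and 12, 12 and 20 in G4. These flanking counts were few, with no G4 library below the 12 counts of the highest G1 library, and the WT and G1 libraries overlapped. Upstream, 21 copies in 20 kb had 16 counts over the WT libraries, 22 over G1 and 26 over G4.

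Tet1 RNA was highest in G4 Terc-/- ESCs. The 153 copies (ENSMUSG00000047146.17, annotated at chr10:62804570-62908996) held 288, 277 and 303 counts in WT, 322, 458 and 352 in G1, and 534, 552 and 544 in G4. The scaled level was 295 ± 8.27 CPM in the WT libraries, 374 ± 32.8 CPM in the G1 libraries and 525 ± 13.8 CPM in G4 (SD, n = 3), with no overlap between any of the groups. Tet1 rose by 0.83 on the log2 scale in G4 against WT (SE 0.111, adjusted p = 7.56e-08), a fold of 1.78, in a comparison that called 20.2% of genes higher. It rose by 0.49 in G4 against G1 (SE 0.109, adjusted p = 5.12e-04). In G1 against WT the difference of 0.34 (SE 0.113) was not called at an adjusted p of 0.0620.

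As in Suv39h1, the leading copies of Tet1 lie in the 3′ UTR, here in the last of the 13 exons of the reference transcript. B1_Mur4, a SINE of 143 bp, had 103, 76.4 and 111 counts in WT, 85, 135 and 87 in G1, and 198, 191.51 and 190 in G4. PB1D9, a SINE of 119 bp upstream of it in the same exon, had 65, 98.6 and 85 counts in WT, 96, 143 and 115 in G1, and 151, 176.49 and 184 in G4. The fractions of a read complement each other between these copies in WT replicate 2 and G4 replicate 2, where the sums of both are the whole numbers 175 and 368. All G4 libraries were above all others for either copy. In G4 against G1, where 38.2% of copies were called, B1_Mur4 was higher by 0.88 (adjusted p = 4.17e-05) and PB1D9 by 0.48 (adjusted p = 0.0102), the latter call being lost without a filter (adjusted p = 0.123) or without G1 replicate 1 (0.34, adjusted p = 0.103). B1_Mur4 rose by 0.94 (SE 0.149, adjusted p = 1.46e-05) and PB1D9 by 0.96 (SE 0.149, adjusted p = 9.80e-06) in G4 against WT. In G1 against WT neither was called, with B1_Mur4 at 0.06 (adjusted p = 0.895) and PB1D9 at 0.49 (adjusted p = 0.0576).

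The 151 intronic copies of Tet1 held 120, 102 and 107 counts in WT, 141, 180 and 150 in G1, and 185, 184 and 170 in G4, which is 112 ± 10.3, 156 ± 5.41 and 174 ± 13.1 CPM. WT was below both other groups in every library, and the G1 and G4 libraries overlapped. As a sum they rose by 0.65 in G4 against WT (SE 0.158, adjusted p = 0.00112). In G4 against G1 the difference of 0.21 was not called (SE 0.153, adjusted p = 0.345), and in G1 against WT the difference of 0.45 was not called (SE 0.159, adjusted p = 0.130). Exon and intron parts were not shown to differ in G4 against WT (exon minus intron 0.30, adjusted p = 0.356), in G1 against WT (-0.23, adjusted p = 0.779) or in G4 against G1 (0.53, adjusted p = 0.0586). Of all Tet1 counts, the 3′ UTR held 62.1% ± 3.32 in the WT libraries, 58.1% ± 2.33 in the G1 libraries and 66.9% ± 1.71 in the G4 libraries, and the G4 shares were above all others.

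The introns of Tet1 were not alike. Intron 2 held 667 counts on 33 copies, most of them on 14 neighbouring copies whose centres lie 21406 to 24975 bp from the start of the reference transcript. Its libraries had 67, 63 and 58 counts in WT, 77, 107 and 80 in G1, and 69, 79 and 67 in G4. At 64.2 ± 7.88, 87.3 ± 7.14 and 69.3 ± 6.85 CPM, the WT and G4 libraries overlapped and the G1 libraries were the highest. MTD, the 1 intronic copy of Tet1 that was tested, lies in this cluster and had 10, 5 and 7 counts in WT, 9, 20 and 9 in G1, and 7, 12 and 6 in G4, a difference of 0.11 in G4 against WT (SE 0.497, adjusted p = 0.884) whose sign depended on the WT libraries kept. The 118 copies of the other introns held 53, 39 and 49 counts in WT, 64, 73 and 70 in G1, and 116, 105 and 103 in G4. These groups did not overlap, at 47.8 ± 5.70, 69.0 ± 4.43 and 104 ± 9.95 CPM. Intron 3 with 34, 22 and 26 counts in WT and 60, 59 and 52 in G4, intron 6 with 3, 0 and 4 and then 13, 14 and 11, and intron 7 with 8, 8 and 5 and then 18, 17 and 18 all had G4 above WT in every library. The introns were told apart after their values were seen, so no test is given.

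**Figure D3:**
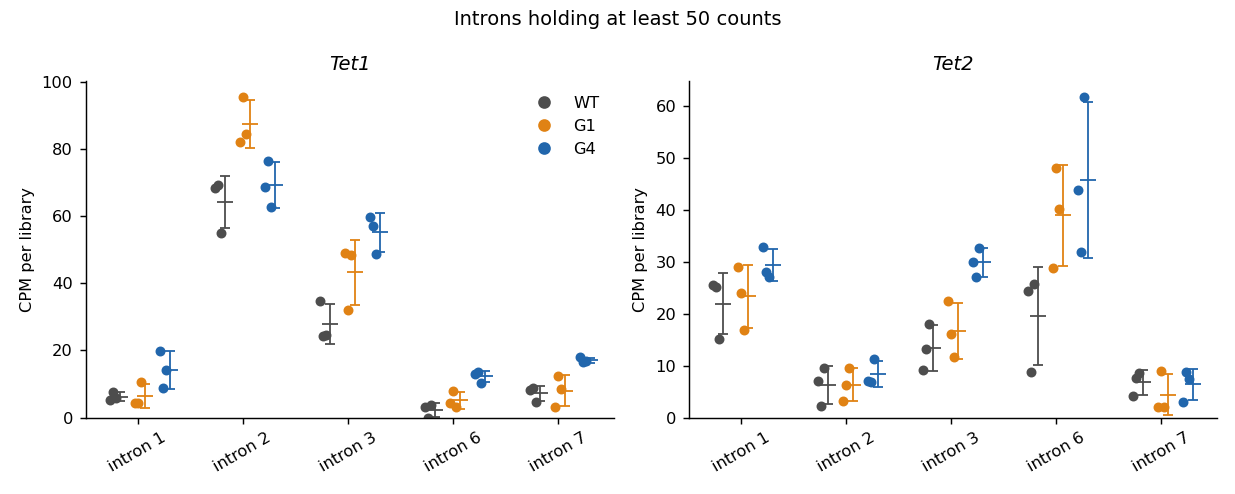
CPM per library (points) with group mean and SD (bars, n = 3) for the introns of Tet1 and Tet2 that hold at least 50 counts, numbered in the reference transcript of each gene. Intron 2 of Tet1 sits at 64.2 CPM in WT and 69.3 in G4 while intron 3 goes from 27.8 to 55.2, and the Tet2 introns 3 and 6 have their lowest mean in WT.

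The annotation of Tet1, its reference transcript included, extends upstream beyond the interval. The 64 copies in the 20 kb upstream of the interval had 26, 24 and 11 counts in WT, 43, 49 and 30 in G1, and 72.33, 61 and 83.17 in G4. By counts the groups did not overlap and stood in the same order as the gene itself. Summed over the whole annotated span, Tet1 rose by 0.91 in G4 against WT (adjusted p = 7.49e-09), and the difference of 0.39 between G1 and WT was then called (adjusted p = 0.0260). Downstream, 41 copies in 20 kb had 44 counts over the WT libraries, 64 over G1 and 35 over G4.

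Tet2 was the least covered of the 3 genes, and none of its copies lies in an exon of a protein-coding transcript. Its 95 copies (ENSMUSG00000040943.12, annotated at chr3:133463679-133545139) lay in introns except 1 beyond the annotated end, and 14 of them were in sequence that a retained-intron transcript holds as exon. They held 71, 57 and 86 counts in WT, 90.28, 126 and 85 in G1, and 134, 123 and 167 in G4. At 72.2 ± 9.55, 99.4 ± 11.7 and 136 ± 18.8 CPM (SD, n = 3), the lowest G4 library at 119 CPM was above the highest G1 library at 112 CPM, and the lowest G1 library at 89.6 CPM above the highest WT library at 81.7 CPM. Tet2 rose by 0.91 in G4 against WT (SE 0.173, adjusted p = 4.18e-05), a fold of 1.88. It rose by 0.45 in G4 against G1 (SE 0.166, adjusted p = 0.0310), a call lost without G4 replicate 3 (0.35, adjusted p = 0.181), G1 replicate 3 (0.40, adjusted p = 0.112) or G1 replicate 1 (0.42, adjusted p = 0.0994). The difference of 0.46 between G1 and WT was not called (SE 0.178, adjusted p = 0.131).

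Lx3B, a LINE-1 fragment of 1566 bp in intron 3, was the leading copy of Tet2. It had 9, 12 and 19 counts in WT, 21, 18 and 11 in G1, and 30, 28 and 34 in G4. The G4 libraries were above all others while WT and G1 overlapped, and the copy rose by 1.13 in G4 against WT (SE 0.318, adjusted p = 0.00553) and by 0.82 in G4 against G1 (SE 0.306, adjusted p = 0.0361). The second call was lost under the DESeq2 Wald test (adjusted p = 0.106), without a filter (adjusted p = 0.409) and without G1 replicate 2 or 3 or G4 replicate 1 or 3 (adjusted p from 0.0867 to 0.174). The other tested copies, L1M2 and L1_Mur3, lie in intron 6, inside a retained-intron transcript. L1_Mur3, of 408 bp, had 4, 4 and 8 counts in WT, 10, 8.24 and 6 in G1, and 15, 8 and 12 in G4, and its difference of 1.06 in G4 against WT was not called (SE 0.512, adjusted p = 0.0996).

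L1M2 showed how far single libraries can carry a copy at this depth. It is 288 bp long, at chr3:133477641-133477928, and is shown in the direction of Tet2. It was the 1 tested copy of the retained intron whose scaled G1 and G4 values were both above WT in every library.
Tet2 L1M2 copy: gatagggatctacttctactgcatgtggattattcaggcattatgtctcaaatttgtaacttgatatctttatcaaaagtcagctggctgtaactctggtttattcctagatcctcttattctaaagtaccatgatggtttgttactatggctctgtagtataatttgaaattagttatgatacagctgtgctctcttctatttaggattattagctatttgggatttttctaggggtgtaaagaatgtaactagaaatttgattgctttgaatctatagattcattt
This copy, from the GENCODE M21 transcript sequence, holds 0 CpGs, unlike the promoter of its gene. It had 3, 2 and 4 counts in WT, 4, 20 and 11 in G1, and 6, 7 and 16 in G4. The lowest G1 and the highest WT library were equal at 4 counts and stood apart only by scaling, at 4.17 and 3.84 CPM. Its differences of 1.57 in G4 (SE 0.641, adjusted p = 0.0516) and 1.88 in G1 (SE 0.624, adjusted p = 0.0718) against WT were not called.

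The 23 copies in introns 3 to 9 of Tet2 held 39, 32 and 60 counts in WT, 60, 92 and 60 in G1, and 93, 87 and 126 in G4, at 43.9 ± 11.5, 69.7 ± 10.6 and 98.2 ± 17.6 CPM. The 71 copies in the long introns 1 and 2 held 32, 25 and 26 counts in WT, 30.28, 34 and 25 in G1, and 40, 36 and 41 in G4, at 28.2 ± 4.02, 29.6 ± 3.0 and 37.7 ± 2.60 CPM. In both parts the G4 libraries were above the WT libraries, and in introns 1 and 2 the WT and G1 libraries overlapped. This split was made after the values were seen and was not tested.

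**Figure D4:**
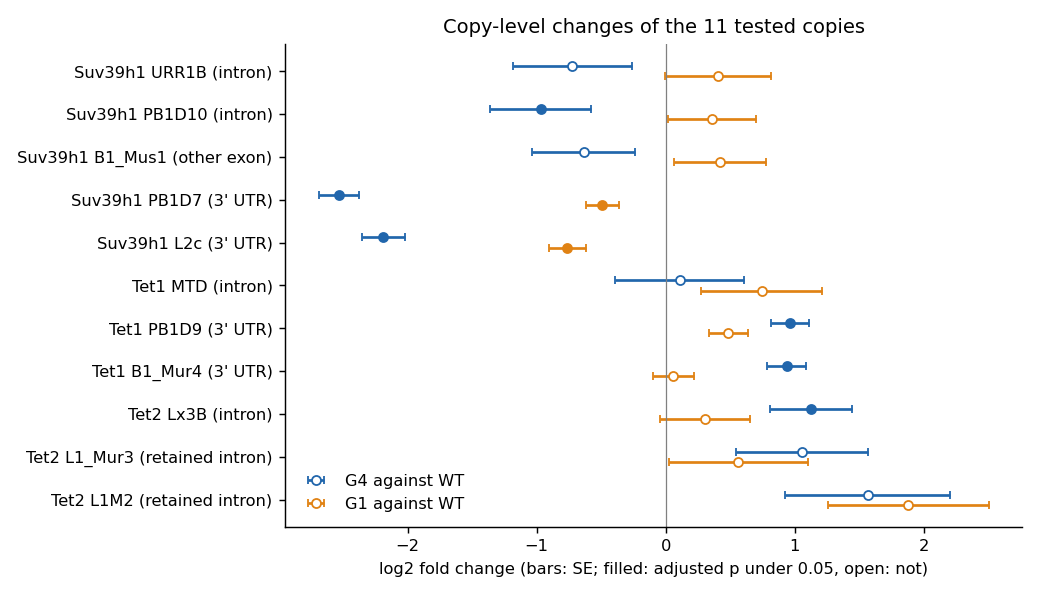
Log2 fold change with its SE (bars) of the 11 copies that passed the filter, in G4 against WT (blue) and G1 against WT (orange), with filled points for an adjusted p under 0.05. In G4 against WT, 3 copies of Suv39h1 are called lower, from -2.53 to -0.97, and 3 copies of Tet1 and Tet2 higher, from 0.94 to 1.13.

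The order of the levels was thus WT, G1, G4 downward for Suv39h1 and upward for Tet1 and Tet2, and for none of the 3 genes did the neighbours WT and G1 differ past the threshold in the sum over all copies. Levels of different genes were set side by side per kb of repeat sequence. In 3′ UTR copies, Suv39h1 had 818 ± 128 CPM per kb in WT and 159 ± 18.1 in G4, and Tet1 had 699 ± 41.1 in WT and 1340 ± 15.7 in G4. Outside protein-coding exons the levels were 39.0 ± 5.59 CPM per kb for Suv39h1, 5.14 ± 0.474 for Tet1 and 3.15 ± 0.417 for Tet2 in WT, and 27.0 ± 7.01, 7.98 ± 0.603 and 5.94 ± 0.821 in G4. The 3′ UTR length of Suv39h1 includes MER113, of 110 bp with 3 counts in all, which lowers its level per kb. With this copy included, Suv39h1 and Tet1 lay within their spread of each other in WT, so no likeness in WT is read from it. In G4 Tet1 was the higher in the 3′ UTR, and outside exons Suv39h1 was the highest in both groups. Over the 9 libraries, log2 CPM of Tet1 and Tet2 correlated at r = 0.91, of Suv39h1 and Tet1 at r = -0.94 and of Suv39h1 and Tet2 at r = -0.89. These values describe libraries that fall into 3 groups, and carry no test.

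Among the 6 H3K9 methyltransferases, all tested, 3 fell and 0 rose in G4 against WT, where 19.6% of all genes tested were called lower and 20.2% higher, with a median log2 fold change of -0.58 beside -0.00 over all genes tested. The count and the median include Suv39h1 itself, whose fall is given above. Also falling were Ehmt2 (-1.28, adjusted p = 2.85e-04) and Ehmt1 (-0.99, adjusted p = 3.42e-04), the enzymes that place the mono- and dimethyl marks on H3K9. Suv39h2, the paralogue of Suv39h1 with the same activity, had 44.3 CPM in WT against 38.9 CPM in G4, a difference of -0.18 (adjusted p = 0.595). Setdb1, the methyltransferase recruited to retrotransposons by zinc-finger proteins, was at 0.33 (adjusted p = 0.0565). In G1 against WT none of the 6 was called by edgeR, and 1 of them, Suv39h1, had an unadjusted p under 0.05.

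Of 13 readers and cofactors of H3K9 methylation, 5 rose and 3 fell in G4 against WT (median 0.22), beside 20.2% of all genes called higher and 19.6% lower. Cbx3 (-1.60) and Cbx1 (0.94), both heterochromatin protein 1 family members that bind methylated H3K9, were called in opposite directions, the rise of Cbx1 being lost over exonic copies (0.26, adjusted p = 0.620) and over protein-coding exons (0.27, adjusted p = 0.575), and Pphln1 (-0.89, not called over copies outside exons at -0.74), a subunit of the HUSH silencing complex, and Daxx (-0.77), a histone H3.3 chaperone, fell. The call of Daxx was lost under several settings. Besides Cbx1, the members called higher by edgeR were Trim28 (0.67, adjusted p = 0.00731), Fam208a (0.55, adjusted p = 0.0111), Atf7ip (0.55, adjusted p = 0.0183) and Atrx (0.48, adjusted p = 0.00898). Cbx3, which fell, and Atf7ip, which rose, lie on chromosome 6. The authors report that a portion of this chromosome was lost in late-generation Terc-/- ESCs. Whether the lost portion holds Cbx3, and the part of copy number in its fall, was not tested. Cbx5, the member of the heterochromatin protein 1 family with the most counts, differed by 0.05 (adjusted p = 0.725). Of 7 tested H3K9 demethylases 2 rose and 0 fell, namely Kdm3b (1.00) and Jmjd1c (0.51), beside 20.2% of all genes called higher. Jmjd1c turned to -0.19 when only exonic copies were summed, and its call was lost under the DESeq2 Wald test (adjusted p = 0.0607) and without WT replicate 2 (0.32), WT replicate 3 (0.38) or G4 replicate 1 (0.41).

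**Figure D5:**
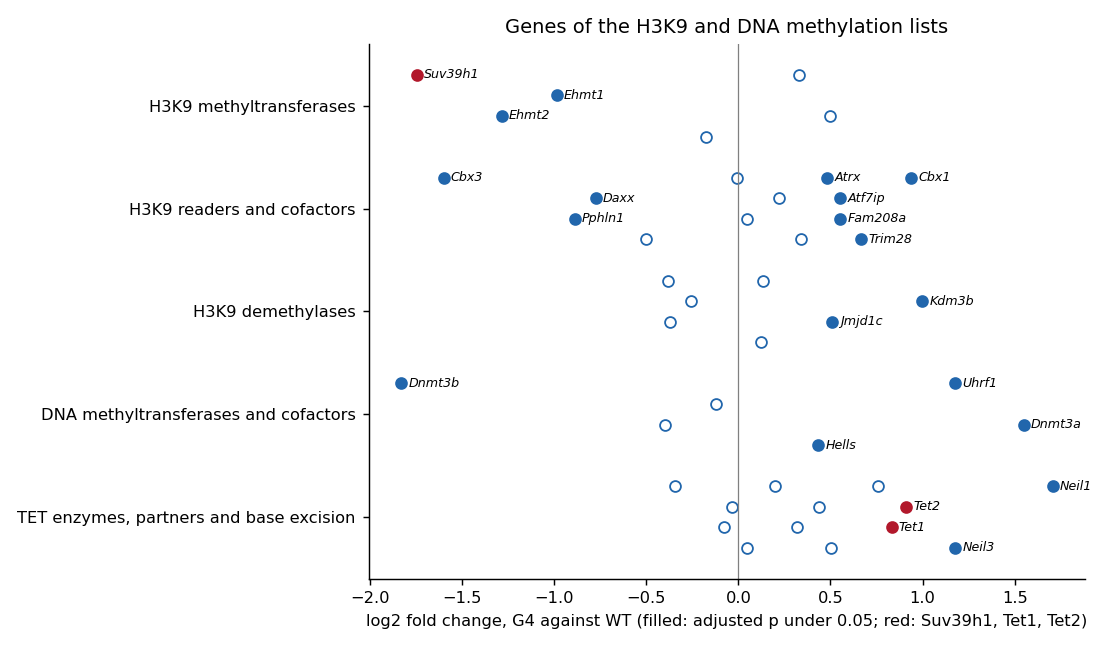
Gene-level log2 fold changes in G4 against WT of all tested members of 5 lists, with filled points for an adjusted p under 0.05 and Suv39h1, Tet1 and Tet2 in red; points are spread vertically within a list for legibility. The called H3K9 methyltransferases lie from -1.74 to -0.99 and the called members of the TET list from 0.83 to 1.71.

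Of 13 tested members of the list of TET enzymes, their partners and base excision repair, 4 rose and 0 fell in G4 against WT. The median was 0.44, in a comparison where 39.8% of all genes were called and 20.2% called higher. The count and the median include Tet1 and Tet2 themselves, whose rises are given above. Tet1 and Tet2 were joined by Neil1 (1.71, adjusted p = 1.32e-04) and Neil3 (1.18, adjusted p = 0.0325), glycosylases that remove oxidised bases. The call of Neil3 was lost under the DESeq2 Wald test (adjusted p = 0.0633), without a filter (adjusted p = 0.0533), without its leading copy (adjusted p = 0.0972) and without WT replicate 2 or 3 or G4 replicate 1 or 2 (adjusted p up to 0.149). Tdg, the glycosylase that excises the end products of TET oxidation, differed by 0.32 (adjusted p = 0.428). Tet3 had 25 counts in all and was not tested. Its counts were 2, 6 and 7 in WT, 5, 1 and 3 in G1, and 0, 1 and 0 in G4, fewest in G4 unlike Tet1 and Tet2. Tet3 lies on chromosome 6, as Cbx3 does, and the part of copy number in its counts was not tested. In G1 against WT 0 of the 13 were called by edgeR, and 3 had an unadjusted p under 0.05. Of 6 tested DNA methyltransferases and cofactors, 3 rose and 1 fell in G4 against WT, beside 20.2% of all genes called higher and 19.6% lower. Dnmt3b, a de novo methyltransferase, fell (-1.83), while Dnmt3a, the other de novo enzyme, rose (1.55), as did Uhrf1 (1.17), which brings the maintenance enzyme to hemimethylated DNA, and Hells (0.43), a chromatin remodeller. Dnmt1, the maintenance enzyme, differed by -0.12 (adjusted p = 0.694).

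On the chromosomes of the 3 genes the median gene differed little. On chromosome X 304 genes were tested, their median difference in G4 against WT was -0.03, and Suv39h1 was number 18 from the lowest. The medians were -0.04 on chromosome 10, the chromosome of Tet1, and -0.09 on chromosome 3, that of Tet2. Of the 8 tested neighbours 1 fell and 1 rose in G4 against WT, where 39.8% of all genes were called, namely Wdr13 beside Suv39h1 (-0.42, adjusted p = 0.0491) and Slc25a16 beside Tet1 (0.59, adjusted p = 0.0119). The call of Wdr13 was lost under both uses of DESeq2, library totals, no filter, the replicate block, a fit of 2 groups, whole-valued copies and 7 of the 9 left-out libraries (adjusted p from 0.0516 to 0.217), and that of Slc25a16 without WT replicate 1 (0.44, adjusted p = 0.0897). Rbm3, also near Suv39h1, had a difference of -0.55 (adjusted p = 0.282). Dna2 (0.37), Rufy2 (-0.20), Hnrnph3 (0.66) and Ccar1 (-0.33) on the Tet1 side and Ppa2 (0.50) on the Tet2 side were not called. Ccar1 was called over exonic copies (-0.62, adjusted p = 0.0141), over protein-coding exons (-0.90, adjusted p = 0.00337) and without WT replicate 3 (-0.48, adjusted p = 0.0363), Dna2 over exonic copies (0.92, adjusted p = 0.0256) and Hnrnph3 without its leading copy (1.03, adjusted p = 0.0410).

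The genes whose log2 CPM was most like each of the 3 over the 9 libraries were sought among 3814 tested genes whose counts averaged 50 or more a library. For Suv39h1 the first was Gm14820 (r = 1.00), which holds the same copies, followed by Sprr2a2 (r = 0.99) and Zfp451 (r = 0.99). For Tet1 they were Adgrl1, Polr3gl and Csad (r = 0.98 each), and for Tet2 Kxd1 (r = 0.98), E430024I08Rik (r = 0.97) and Kif3c (r = 0.97). Zfp451 had 134 ± 10.6 CPM in WT against 68.5 ± 6.02 in G4, Csad 29.9 ± 1.56 against 95.4 ± 4.97, and Polr3gl 108 ± 7.14 against 242 ± 22.5. All 9 points per gene share the library scaling and the 3 groups, so the coefficients are descriptions.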

How the data were processed

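RNA-seq libraries of total RNA (TruSeq RNA kit) were processed by the authors with FastQC 0.11.9, STAR 2.5.3a and featureCounts on mm10, per the labels. The deposited values are estimated counts per repeat copy, not normalized, which the authors made by counting aligned reads over annotated copies, and 55092 of 623916 copies hold a value that is not whole. How reads shared between copies were divided is not given in the sources used here. The authors' normalized table was not used here. The methods name 2 biological replicates per line, the labels 3 libraries per group. The Control columns were read as the WT libraries.

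Copies wholly inside a GENCODE M21 gene span (for the 3 genes, the given intervals) were summed per gene. Rounded sums that passed filterByExpr entered the quasi-likelihood fit of edgeR 4.0.16 (R 4.3.3) over 9 libraries, without a block and with TMM scaling from the totals of the table. Tests were two-sided with Benjamini-Hochberg adjustment over all genes or copies tested. A copy counted as exonic with at least 50% of its length in exons. Copies, and exon against other copies, were compared within genes with diffSpliceDGE (the exon test was added after the data were seen). Each SE was derived from the F statistic, and correlations used log2 CPM with a prior count of 2. Starts were read as 0-based and printed 1-based. Scripts were tested on simulated data with 200 changed features.

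The members and gene lists were chosen with earlier results of these data known. Named were the 3 genes, their copies with at least 10 counts (single ones only where tested or leading), up to 4 called members per list with the largest change in G4 against WT, tested neighbours, and the 3 genes most like each member. Other list members were named after their values were seen. Alternatives were DESeq2 1.42.0 (Wald test or size factors), library totals, no filter, a replicate block, fits of 2 groups, leaving out each library, and sums over exonic, non-exonic, whole-valued or non-leading copies or the annotated span.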

Additional observations from a re-analysis of the deposited data

How the results depend on the processing

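The falls of Suv39h1 and the rises of Tet1 and Tet2 in G4 against WT kept their direction under every alternative run, from -2.21 to -0.49 for Suv39h1, 0.64 to 0.92 for Tet1 and 0.81 to 1.00 for Tet2. They stayed past the threshold with 1 exception, Suv39h1 summed over copies outside any exon (-0.49) or outside protein-coding exons (-0.50). In G1 against WT Suv39h1 was called with DESeq2 size factors (-0.39), library totals (-0.36), 2 groups fitted (-0.38), exonic copies (-0.49), whole-valued copies (-0.44), the annotated span (-0.38) or copies in protein-coding exons (-0.46), and its sign turned for copies outside exons (0.21) or outside protein-coding exons (0.21). Tet1 was then called with library totals (0.37), 2 groups (0.35), without its leading copy (0.45), over the annotated span (0.39) or in protein-coding exons (0.34). In G4 against G1 the call of Tet1 was lost outside exons (0.21), outside protein-coding exons (0.21) and over whole-valued copies (0.18), and that of Tet2 without a filter (0.42), over exonic (0.22) or whole-valued copies (0.44) and without its leading copy (0.40). The whole-valued sum of Tet1 leaves out both of its 3′ UTR copies, B1_Mur4 and PB1D9, and so holds intronic copies alone. Sums over part of the copies hold fewer counts and test fewer genes. The cause of the other changes was not tested.

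Leaving out 1 library gave -0.51 to -0.32 for Suv39h1 in G1 against WT (called without WT 1, G4 1 or G4 2), 0.28 to 0.40 for Tet1 in G1 against WT (called without G4 1) and 0.35 to 0.55 for Tet2 in G4 against G1. The exon minus other difference in G4 against G1 ran from -0.95 to -0.71 for Suv39h1 and from 0.47 to 0.62 for Tet1 (called without G4 1, 0.58). Called genes in G1 against WT numbered 390 (without G1 2) to 729. Signs turned for single copies, with B1_Mur4 of Tet1 at -0.091 to 0.12 in G1 against WT (below 0 without WT 2 or G1 2), MTD at -0.11 to 0.39 in G4 against WT (below 0 without WT 2 or WT 3) and L1M2 at -0.80 to 0.17 in G4 against G1 (above 0 without G1 2). Jmjd1c turned to -0.19 over exonic copies.

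Of all genes, exonic copies called 2190 in G4 against WT and 1937 in G4 against G1, copies outside exons 2537, 242 (G1 against WT) and 2134, protein-coding exons 1799 and 1575, and in G1 against WT copies outside protein-coding exons 273 and sums without the leading copy 288. Of copies in G1 against WT, the DESeq2 Wald test called 587 and the unfiltered fit 457. With the replicate number as a block, Suv39h1 was at -1.75, Tet1 at 0.83 and Tet2 at 0.91 in G4 against WT, and the block changed no call of the 3 genes. The block moved no count of called genes by over 1.5 times, and it ended 3 calls, PB1D10 and Wdr13 in G4 against WT and URR1B in G4 against G1. Deviations of same-numbered libraries correlated at -0.10 to 0.08, so the numbers give no pairing. Of the results for single genes and copies named among many, 1113 values stayed on their side of the threshold, 79 lost and 12 gained a call, and 6 turned. At this depth most single copies are too sparsely counted to test.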
